A study of Danio rerio with 18 samples.

Results

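A set of 603 m6A peaks of zebrafish trunk carried a position called as methylated at nucleotide resolution but no called Ythdf2-bound region. They were taken from the 32131 peaks of the first control MeRIP-seq list in 3 steps. Of those, 20625 (64.2%) overlapped a peak of control list 2 by at least 1 bp. Among the shared peaks, 5113 (24.8%) held at least 1 miCLIP site with the same position and strand in both miCLIP lists. Of these, 603 (11.8%) overlapped no region of either Ythdf2 RIP list. Among the shared control peaks without such a site, 4520 overlapped no region and 10992 did. Lacking a region was thus less common among peaks with a site than among those without, with length not taken into account. Peaks with a site were longer, with medians of 329 bp without a region and 440 bp with one. Without a site these medians were 257 and 308 bp. The other 4510 peaks with a site overlapped a region: 3429 in both RIP lists, 734 in RIP list 1 alone and 347 in RIP list 2 alone. The choice of members thus used the control m6A peaks, the miCLIP sites and the RIP regions, and values of these are given as descriptions. The peak lists of mettl3 morphants were not used to choose them.

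N6-methyladenosine (m6A) is a methyl mark placed on adenosines of messenger RNA while the RNA is made. A complex built around the enzyme Mettl3 writes it, and proteins with a YTH domain read it. Ythdf2 is a cytoplasmic reader of this family, known for bringing marked transcripts to the machinery that removes the poly(A) tail and degrades RNA. In zebrafish it is known for clearing maternal transcripts in the early embryo, and in the trunk at this age m6A is known for its part in the emergence of blood stem cells from arterial endothelium.

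All libraries used here came from the trunk of embryos at 28 hours post-fertilization (hpf), 2 per group. The tested embryos were mettl3 morphants, injected with a morpholino against mettl3, with MeRIP-seq IP and input libraries. MeRIP-seq pulls down RNA fragments with an m6A antibody and compares them with unselected RNA. The RIP libraries came from embryos injected with mRNA for Flag-tagged Ythdf2, so the reader was supplied from outside and its regions need not be those of the endogenous protein. Control embryos, called normal in the labels, gave MeRIP-seq IP and input libraries and miCLIP libraries. In miCLIP, an m6A antibody is crosslinked to the RNA so that the marked base itself can be located; its antibody came from another vendor than that of MeRIP-seq. The morpholino's sequence, its dose and the injection given to controls are not stated in the labels. MeRIP replicate 1 was read at 151 bp and all other libraries at 101 bp, so read length and replicate number cannot be told apart in the MeRIP lists.

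Counts on genes reached 32.8 to 78.3 M in MeRIP libraries but 7.90 and 5.27 M in the RIP libraries, where 42.9% and 43.8% of reads fell outside genes. The transcript of the targeted gene went against the label in replicate 2. METTL3 stood at 17.7 and 55.2 counts for every 1e6 counts on genes (CPM) in morphant IPs 1 and 2, against 43.5 and 22.3 CPM in control IPs 1 and 2. In inputs it stood at 15.7 and 48.2 CPM in morphants and 35.8 and 19.6 CPM in controls. METTL3 was thus lower in morphants of replicate 1 and higher in those of replicate 2, and the cause was not tested. These transcript values do not show whether the Mettl3 protein was reduced. The lists are therefore called morphant by label, and each list is given on its own. YTHDF2 stood at 44.2 and 117 CPM in the RIP libraries and 26.6 and 37.2 CPM in control inputs. In m6A IPs 1 and 2 it stood at 67.2 and 109 CPM in controls and 70.7 and 112 CPM in morphants. Tissue markers were checked against the trunk label. The 3 matched genes of 6 for skeletal muscle summed to 6068 to 10864 CPM over the 4 inputs and the 4 epidermal genes to 25125 to 30936 CPM. The 10 matched genes of 11 for lens, eye, forebrain and heart summed to 20.4 to 36.8 CPM, and 3 of them were below 1 CPM in every input (the lens gene cryaa and the heart genes nppa and cmlc1). None of the 3 notochord genes matched a single ID.

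Positions are printed as the authors listed them, with contigs named in the style of the Zv9 build. The lists name no genes and an annotation of Zv9 was not used, so no gene, exon or UTR is assigned to any position. Each fold enrichment is the authors' own value for a peak and describes that peak within its list. Percentages carry 95% exact (Clopper-Pearson) intervals, which cover counting error only. Peaks of a class can lie on the same transcript, so they are not independent and the intervals are too narrow.

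Absence of a region is a call at the depth of the RIP libraries, and some members lay only a few bp from a region. The RIP lists were still longer than the m6A lists. RIP lists 1 and 2 held 55886 and 43371 regions, with lengths summing to 20169 and 15689.5 kb. Control m6A lists 1 and 2 held 32131 and 23819 peaks, summing to 11053 and 8243 kb. The 3 nearest members lay 2 bp (chr13:2220457-2220659), 5 bp (chr2:22459121-22459557) and 7 bp (chr22:10204490-10205018) from a region. Most lay farther off, with a median of 1434 bp over all members. Just outside the set, the peaks at chr13:33469715-33469962, chr14:37487710-37488187 and chr20:39363726-39364194 shared 1, 3 and 3 bp with a region. Without RIP list 1 the set held 1337 peaks, and without RIP list 2 it held 950. Without miCLIP list 1 or 2, so that any site of the other list sufficed, it held 1223 or 1297 peaks.

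Members were of ordinary strength and modest length. Their fold in control list 1 ran from 1.23 to 37.8 with a median of 5.31, where peaks with both a site and a region had a median of 5.10 and all shared control peaks 5.32. In control list 2 the medians were 5.40 for members and 5.48 for peaks with a site and a region. Of the 603 members, 338 (56.1%) stood above the median of all peaks in control list 1 and 312 (51.7%) above that of control list 2. Length separated the classes more than strength did. Members had a median length of 329 bp (quartiles 261 and 478), against 440 bp (306 and 637) for peaks with a site and a region and 257 bp (220 and 347) for the 4520 peaks with neither. Within the class with a site, the median was 357 bp with a region in 1 RIP list and 477 bp with one in both. Few members were long: 16 exceeded 1000 bp, and the longest, at chr1:52872637-52874678, spanned 2041 bp, held 8 shared sites and had folds of 5.39 and 5.52 in morphant lists 1 and 2 and 11.7 and 6.89 in control lists 1 and 2.

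The 8 members of highest fold in control list 1 are given with their values in all lists. The strongest, at chr9:56198048-56198347, had folds of 7.56 and 15.05 in morphant lists 1 and 2 and 37.8 and 14.2 in control lists 1 and 2. It held 2 shared sites on the plus strand, 19 nt apart at positions 56198192 and 56198211. At chr23:44924131-44924533 the folds were 17.6 in morphant list 1, no peak in morphant list 2, and 33.3 and 7.30 in the control lists. Both of these had been picked by their fold in control list 1 and stood lower in control list 2.

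At chr20:50327480-50327777 the folds were 6.92 and 20.2 in morphant lists 1 and 2 and 30.8 and 27.3 in control lists 1 and 2. At chr15:6562914-6563377 they were 9.88 and 12.8 in morphants and 26.4 and 20.03 in controls. At chr7:19926006-19926308 they were 10.8 and 15.2 in morphants and 24.96 and 20.6 in controls. These 3 held 1 shared site each and were strong in both control lists and in morphant list 2. The peak at chr6:24172850-24173068 was compact, 218 bp long with 4 shared sites on the minus strand within 65 nt, and it lay 124168 bp from the nearest RIP region. Its folds were 11.1 in morphant list 1, no peak in morphant list 2, and 23.8 and 32.1 in control lists 1 and 2. At chr20:2508707-2509095 the folds were 11.2 and 4.71 in morphants and 23.3 and 9.03 in controls, with 2 sites 331 nt apart. At chr14:53731262-53731559 they were 8.66 and 9.19 in morphants and 21.3 and 16.04 in controls, with 2 sites 27 nt apart. Of the 8, all had a peak in morphant list 1 and 6 in morphant list 2, where all shared control peaks gave 81.5% and 63.9%.

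Over all members the folds of the control lists went together loosely, with a Pearson correlation of 0.47 and a Spearman correlation of 0.69 (603 peaks, which share 2 pairs of libraries). The member of highest fold in control list 2, picked after its values were seen, was a 225 bp peak at chr4:54983324-54983549. It had no peak in morphant list 1, a fold of 21.7 in morphant list 2, and folds of 9.48 and 115 in control lists 1 and 2. Fold showed almost no correlation with length (Spearman −0.00015) or with the number of shared sites (−0.026), while length and number of sites had 0.26.

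**Figure D1:**
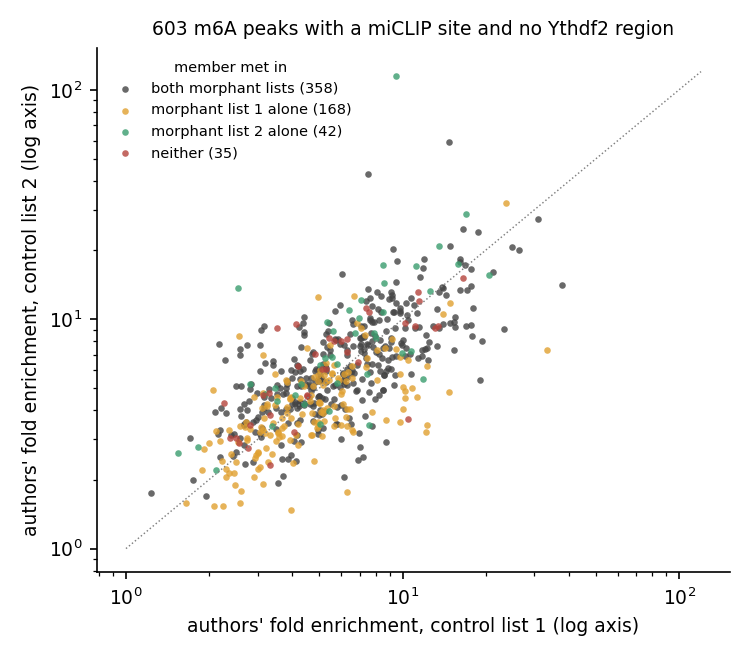
Authors' fold enrichment of each of the 603 members in control list 1 (x axis, log scale) and the highest fold among the control list 2 peaks overlapping it (y axis, log scale). Each member is 1 point, coloured by the morphant lists in which it had a peak, with the line of equal fold dotted. Members found in morphant list 1 alone (168) sit lower on the y axis, with a median fold of 3.92 in control list 2, than those found in both (358), with 6.06.

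The members held 954 shared miCLIP sites, 539 on the plus and 415 on the minus strand, or 3.86 sites per kb of peak, against 4.56 sites per kb in peaks with a site and a region. A single shared site was the common case. It was found in 427 members (70.8%), against 2245 (49.8%) of the peaks with a site and a region. Another 100 members held 2 sites and 76 (12.6%) held 3 or more, against 1286 (28.5%) of the peaks with a region. No member had sites on both strands: 324 were read from the plus and 279 from the minus strand. Both miCLIP lists also placed sites in members that the other list lacked, 596 in list 1 and 589 in list 2, so that 61.5% and 61.8% of the sites of each list in these peaks were shared. In peaks with a site and a region these shares were 62.5% and 64.5%.

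Within a member, sites lay toward the 3′ end of the peak. Read along the strand of the site, the 5 equal parts of the peak from 5′ to 3′ held 5.66%, 14.05%, 27.04%, 28.8% and 24.4% of the 954 sites. The median position was 62.2% of the peak length. Peaks with a site and a region gave 6.04%, 16.4%, 25.4%, 27.8% and 24.4%, with a median of 61.5%. The middle 50% of the peak held 58.9% of sites in members (95% interval 55.7% to 62.1%) and 59.3% (58.4% to 60.3%) in peaks with a region. Of 351 gaps between neighbouring sites of a member, 171 (48.7%) were at most 50 nt and 35 (9.97%) at most 10 nt, with a median of 51 nt. Peaks with a region had a median gap of 44 nt over 6298 gaps.

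**Figure D2:**
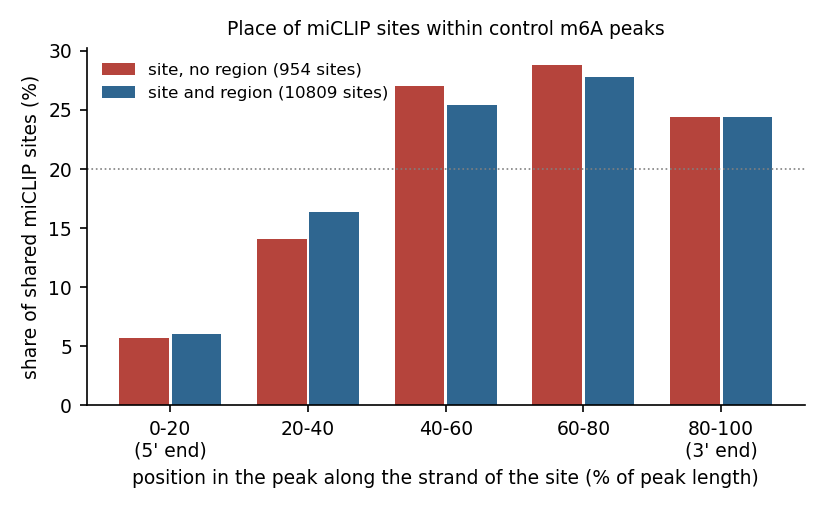
Share of shared miCLIP sites (y axis, %) in 5 equal parts of the peak, read from 5′ to 3′ along the strand of the site (x axis, % of peak length), for the 954 sites of members and the 10809 sites of peaks with a site and a region; the dotted line marks an even spread. In both classes the first part held about 6% of the sites and the last 3 parts each held 24% or more.

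The 8 members with 9 or more shared sites held them over 292 to 738 nt. The peak at chr3:6529874-6530336 held 12 shared sites over 412 nt on the plus strand, a median of 33 nt apart, with folds of 4.23 and 6.97 in morphant lists 1 and 2 and 5.44 and 9.58 in control lists 1 and 2. That at chr21:195636-196204 held 11 sites over 292 nt and had folds of 4.89 and 7.47 in morphants and 6.92 and 2.43 in controls. It lay 75 bp from a region of RIP list 1 and 2352 bp from one of RIP list 2. The peak at chr19:47019715-47020393, with 10 sites over 300 nt, kept a like fold in all 4 lists, 14.03 and 13.5 in morphants and 17.7 and 13.99 in controls. Its sites were evenly spaced, 30 nt apart save for a step of 60 nt before position 47020007. What gave this even spacing was not tested. The other 5 held 9 sites each and lay at chr16:6742381-6743069, chr4:62057104-62057677, chr4:62085838-62086925, chr7:8506236-8506996 and MT:8998-9575. Of the 8, 7 had a peak in both morphant lists, and chr4:62057104-62057677 had one in list 1 alone. All shared control peaks were in both lists in 56.4% of cases. Among peaks with 3 or more shared sites, 71.1% of members and 93.2% of peaks with a region were in both.

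Peak lists of mettl3 morphants asked how often the same stretch of RNA was called again. Of the 603 members, 526 overlapped a peak of morphant list 1, or 87.2% (84.3% to 89.8%), where 81.5% of all 20625 shared control peaks did. In morphant list 2, 400 members had a peak, or 66.3% (62.4% to 70.1%), where all shared control peaks gave 63.9%. Both lists held 358 members, 59.4% (55.3% to 63.3%), against 56.4% of all shared control peaks. Neither list held 35 members, 5.80% (4.08% to 7.98%), against 11% of all shared control peaks. Under this rule members therefore sat close to the background of shared control peaks in morphant list 2 and in both lists at once. In morphant list 1 they sat above it. These levels moved with the lists used. With morphant list 1 cut to its 14878 peaks of highest fold, the length of morphant list 2, 47.9% of members and 48.0% of all shared control peaks were in list 1, and 36.2% and 34.2% in both lists. The share in neither list was then 21.9% of members and 22.3% of all shared control peaks. With members drawn anew from the better-ranked 50% of each m6A list (256 members) it was 12.9% and 19.0%. Without control list 1 (679 members) it was 10.5% and 17.3%, and without control list 2 (768 members) it was 11.8% and 23.9%. Without control list 2, members also stood above all peaks of control list 1 in morphant list 2, at 52.6% against 42.4%. Leaving out a RIP or miCLIP list kept all shared control peaks at 63.9% in morphant list 2 and 56.4% in both, but moved members either way. Without RIP list 1 members had 72.7% and 64.4%, and without RIP list 2 they had 72.3% and 67.5%. Without miCLIP list 1 they had 60.7% and 53.5%, and without miCLIP list 2 they had 59.8% and 53.9%.

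The peaks with a miCLIP site that did overlap a Ythdf2 region were met more often, and the gap lay mainly in morphant list 2. In morphant list 1 the share was 87.2% of members, 89.2% (87.2% to 91.0%) of the 1081 peaks with a region in 1 RIP list and 94.9% (94.1% to 95.6%) of the 3429 with a region in both. In morphant list 2 it was 66.3% of members, 79.5% (76.9% to 81.8%) with a region in 1 RIP list and 91.9% (90.9% to 92.8%) with a region in both. Taking regions of either RIP list together, members stood 6.27 percentage points lower in morphant list 1 (87.2% against 93.5%) and 22.6 points lower in morphant list 2 (66.3% against 88.9%). For both morphant lists at once the difference was −24.8 points (59.4% against 84.2%), and with morphant lists of equal length it was −13.96 points (36.2% against 50.1%). Per list, the differences at equal length were −5.82 points in morphant list 1 (47.9% against 53.7%) and −22.6 points in morphant list 2, which was not shortened. Members in turn exceeded the 4520 peaks with neither site nor region, of which 70.4% were in morphant list 1, 39.7% in morphant list 2 and 32.01% in both. The difference from these in both lists was 27.4 points, and 15.4 points with morphant lists of equal length, where list 1 gave 47.9% against 44.5% with overlapping intervals. These differences from the peaks with a site and a region, and from the peaks with neither, had the same sign in both morphant lists. With the full lists the counting intervals did not overlap. Against the peaks with a site and a region in 1 RIP list the intervals overlapped in morphant list 1 and did not in morphant list 2. The 10992 peaks with a region and no site were in morphant list 1 in 80.8% of cases (80.1% to 81.6%), below members. In morphant list 2 they gave 63.5% (62.6% to 64.4%) and in both lists 54.9% (54.0% to 55.9%), where the intervals overlapped those of members. Having a region thus did not by itself go with a higher share than that of members. With 2 lists an exact test over lists cannot give a two-sided p below 0.5, so none was run.

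**Figure D3:**
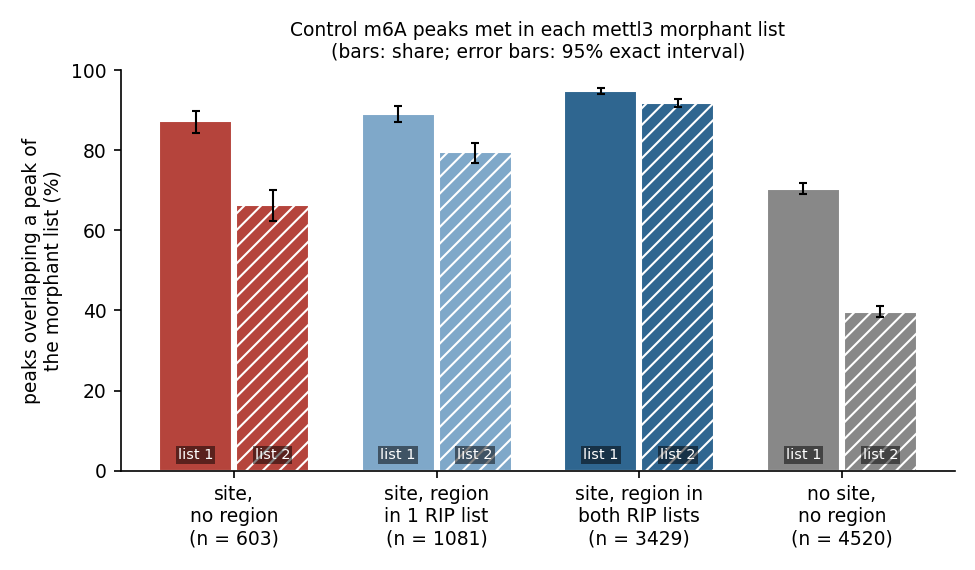
Share of control m6A peaks that overlapped a peak of morphant list 1 (plain bars) or morphant list 2 (hatched bars), in % on the y axis, for members (site, no region) and 3 other classes of shared control peaks, with 95% exact intervals as error bars. The plain bar of members, at 87.2%, stands near that of the class with a region in 1 RIP list (89.2%). It lies below that of the class with a region in both (94.9%). The hatched bar of members, at 66.3%, lies between the class with a region in 1 RIP list and the class with neither site nor region.

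Counted by single sites, the order of the classes was that of the peaks that hold them. A site could lie inside a morphant peak only where its own peak overlapped one, so this count is not separate evidence. Of the 954 sites in members, 782 (82.0%) lay inside a peak of morphant list 1 and 551 (57.8%) inside one of morphant list 2, while 860 (90.1%) lay inside a peak of control list 2. Of the 8743 sites in peaks with a region in both RIP lists, 90.7% lay inside a peak of morphant list 1, 86.2% inside one of morphant list 2 and 94.8% inside one of control list 2. The sites of peaks with a region in 1 RIP list stood between these in morphant list 2, at 72.3%.

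Members were shorter than the peaks with a region, so the shares were also read at like length. Among peaks of at most 298 bp, 73.9% of 234 members and 77.2% of 1048 peaks with a site and a region were in morphant list 1, and 55.6% and 77.8% in morphant list 2. Above 623 bp, 98.7% of 78 members and 99.7% of 1195 peaks with a region were in morphant list 1, and 82.1% and 94.9% in morphant list 2. In morphant list 1 the intervals of these classes overlapped in the 2 lower length groups and in the highest, and in morphant list 2 they did not overlap in any of the 4. With peaks of the class with a region weighted to the length and fold of members, the class had 89.6% in morphant list 1 and 86.8% in morphant list 2, and members stood 2.41 and 20.5 points below these.

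**Figure D4:**
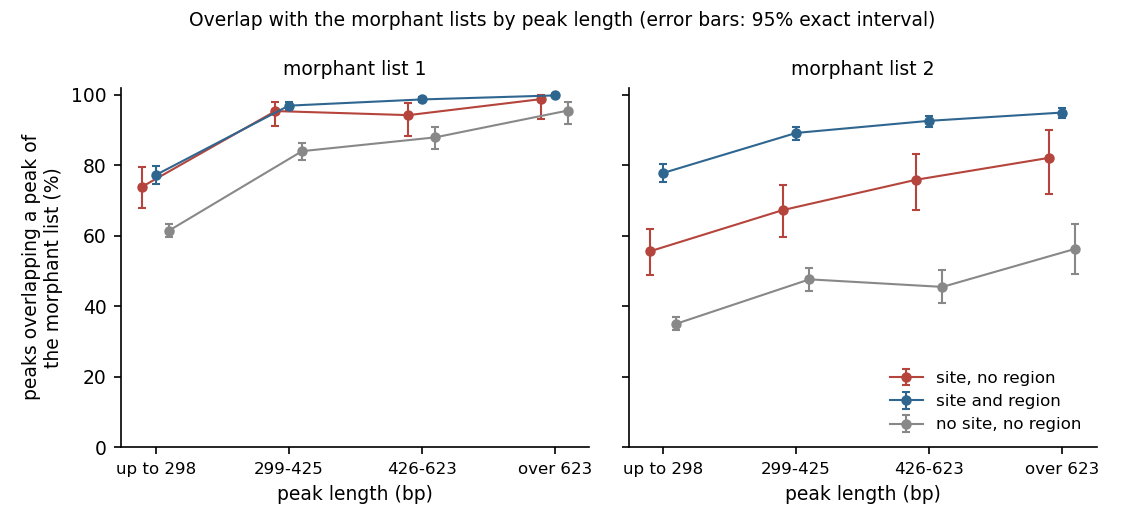
Share of peaks that overlapped a peak of morphant list 1 (left) or morphant list 2 (right), in % on the y axis, in 4 groups of peak length (x axis, bp), for members (site, no region), peaks with a site and a region, and peaks with neither; error bars are 95% exact intervals. In morphant list 2 the members run from 55.6% to 82.1% and stay below the peaks with a region and above the peaks with neither in each length group.

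Stronger peaks were met more often in morphant list 2, among members and in the classes compared with them. By fold in control list 1, in 4 groups from weak to strong, the share of members in morphant list 2 was 51.05%, 62.5%, 66.4% and 81.0%, while the share in morphant list 1 was 86.0%, 91.2%, 86.4% and 85.9%. In morphant list 2, peaks with a site and a region gave 79.0%, 89.8%, 92.1% and 94.8%. Peaks with neither gave 32.7%, 32.0%, 36.7% and 52.8%. Members with 1, 2 and 3 or more shared sites were in morphant list 2 in 276 of 427, 67 of 100 and 57 of 76 cases, and in morphant list 1 in 362, 95 and 69 of these. In morphant list 1 these are 84.8% (81.0% to 88.1%), 95% (88.7% to 98.4%) and 90.8% (81.9% to 96.2%) of members, so that the intervals for 1 and 2 sites did not overlap. Peaks with a site and a region gave 90.7%, 95.1% and 97.1% there. In morphant list 2 members gave 64.6% (59.9% to 69.2%), 67% (56.9% to 76.1%) and 75% (63.7% to 84.2%), whose intervals overlapped, against 84.1%, 91.2% and 95.4% of the peaks with a region. Morphant list 2 was also the shortest list, with 14878 peaks against 27289 in morphant list 1, 32131 in control list 1 and 23819 in control list 2, and came from the IP with 55.2 CPM of METTL3. What part read length or METTL3 level had in these shares was not tested. In bulk tissue, fewer cells with a transcript and less of it per cell cannot be told apart. RNA abundance at each peak was not measured here, and its part in which peaks gave a RIP region or a morphant peak was not tested.

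Members split into 4 patterns. Of all 20625 shared control peaks, 16809 were in morphant list 1, 13182 in morphant list 2, 11641 in both and 2275 in neither. Length and fold by pattern were taken for members only, so they are not shown to be particular to members. The 358 found in both morphant lists had a median length of 388.5 bp and median folds of 6.01 and 6.06 in control lists 1 and 2. The 168 found in morphant list 1 alone were shorter, at 305.5 bp, and weaker, at 4.68 and 3.92. The 42 found in morphant list 2 alone were short but not weak, with 245.5 bp and folds of 6.10 and 6.98. The 35 found in neither were likewise short, with 250 bp and folds of 5.12 and 6.49, and 31 of them (88.6%) held 1 shared site.

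Among the 35 members without a morphant peak, the strongest in control list 1 lay at chr24:31170208-31170495, with folds of 16.5 and 15.1 in control lists 1 and 2 and a site at position 31170281 on the minus strand. Next came chr23:44855007-44855250 (13.4 and 9.32), chr1:52117832-52118184 (13.1 and 9.19), chr14:35617085-35617289 (11.4 and 12.03) and chr22:27026944-27027236 (11.3 and 13.1). Each of the 5 held 1 shared site and was at most 352 bp long. The nearest Ythdf2 region of either list lay 8155, 11338, 2506, 27506 and 31471 bp away in the order given. All 5 had folds of 9 or more in both control lists, the first of which was used to pick them.

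By the rule no member overlapped a Ythdf2 region, but most lay near one. A region lay within 10000 bp of 92.9% of members. Of all shared control peaks, 89.8% had a region within that distance that did not overlap them. The median distance to the nearest region of either list was 1434 bp (quartiles 483.5 and 3393), against 2104 bp for peaks with neither site nor region. Of the members, 72 (11.9%) lay at most 200 bp from a region, 164 (27.2%) between 201 and 1000 bp, 324 (53.7%) between 1001 and 10000 bp, and 43 (7.13%) farther. Among the peaks with neither site nor region these shares were 9.40%, 21.2%, 55.2% and 13.7% (621 peaks) in the same order. The share found in the morphant lists had no steady order with distance. Members in the 4 distance groups, from near to far, were in both morphant lists in 63.9%, 53.7%, 62.04% and 53.5% of cases.

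**Figure D5:**
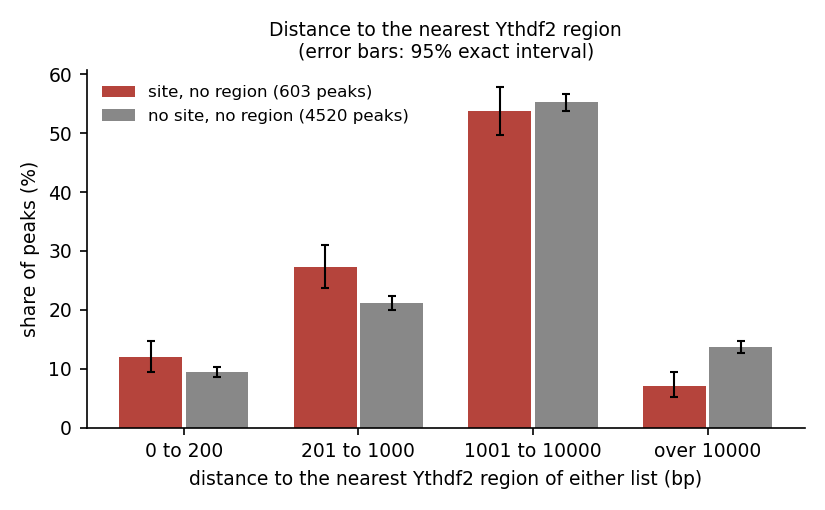
Share of peaks (y axis, %) by distance to the nearest Ythdf2 region of either RIP list (x axis, bp), for the 603 members and the 4520 shared control peaks with neither site nor region, of which 20 lay on a sequence with no region and are not drawn; error bars are 95% exact intervals. In both classes the commonest distance was 1001 to 10000 bp, and 7.13% of members against 13.7% of the other class lay beyond it.

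Neighbouring m6A peaks were about as frequent around members as around peaks with a site and a region. Further miCLIP sites within 1000 bp were less frequent than around peaks with a region in both RIP lists. Another shared control peak lay within 1000 bp of 166 members (27.5%), against 25.03% of the peaks with a site and a region and 18.6% of those with neither. A shared miCLIP site outside the peak lay within 1000 bp of 168 members (27.9%, interval 24.3% to 31.6%), against 35.3% (33.9% to 36.7%) and 7.74%. With a region in 1 RIP list the share was 29.0% (26.3% to 31.8%), near that of members, and with a region in both it was 37.3%. All shared control peaks gave 16.8%. Within 10000 bp the shares were 59.9% of members and 61.8% of peaks with a site and a region. A RIP region that did not overlap the peak lay within 1000 bp of 236 members (39.1%). It did so for 40.6% of peaks with a site and a region, 30.6% of those with neither and 34.7% of all shared control peaks. Members and peaks with neither were chosen to overlap no region, which bears on that last count.

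Members were spread over all 25 nuclear chromosomes. They made up 4.55% (7 peaks, chromosome 18) to 18.2% (28 peaks, chromosome 22) of the peaks with a site on a chromosome, with intervals of 1.85% to 9.14% and 12.4% to 25.2%. Consecutive members lay a median of 1157 kb apart, and 43 of 577 neighbouring pairs (7.45%) started within 10000 bp. The closest group was 5 members on the minus strand at chr13:31149323-31154283, with 1, 2, 1, 2 and 1 shared sites from low to high position. Their folds were low, 2.46 to 4.25 in control list 1. The first 3 had a peak in both morphant lists, the fourth in morphant list 1 alone and the fifth in neither.

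On chromosome 4 beyond position 30000000 lay 5 members and 6 peaks with a site and a region, against 11 and 110 on the rest of that chromosome. Of all shared control peaks, 125 lay beyond that position, 55 of them with neither site nor region. On the rest of the chromosome 133 of 503 had neither, so the lack of a region there was not particular to members. Of the 5 members, 3 were in both morphant lists, 1 in each of the lists alone. A single member lay on the mitochondrial genome, at MT:8998-9575, with 9 shared sites on the plus strand and low folds, 1.77 and 1.05 in morphant lists 1 and 2 and 1.75 and 1.99 in control lists 1 and 2. No member lay on an unplaced scaffold, where none of the 329 shared control peaks held a shared miCLIP site.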

How the data were processed

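MeRIP-seq, miCLIP and Ythdf2 RIP-seq lists of 28 hpf zebrafish trunk were used. Per the submitters' processing notes, TopHat2 2.0.9 aligned the reads (BWA 0.7.10 for miCLIP) and MACS2 called peaks. The deposited peak lists give a fold enrichment (ratio) per peak, 1 list per replicate. Deposited miCLIP lists give positions with strand, and deposited RIP lists give starts and ends. The authors' raw counts per gene (HTSeq, per the submitters' processing notes) served for depth and gene checks. Peak thresholds, genome build and counting convention were not stated. In morphant list 1, 4842 lines without a fold repeated control list 1 lines and were left out. Intervals were read as half-open, since the shortest in every list spans 200 bp, and overlaps of 1 bp counted.

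Overlaps were computed in Python 3.11.15 (pandas 2.3.3, numpy 2.4.6), intervals with SciPy 1.17.1; overlap functions were tested on simulated data. Members named are the 8 of highest fold in control list 1, the 6 with most shared sites and 2 tied with them, the 5 strongest in neither morphant list, 3 on each side of the RIP limit and the densest 10000 bp; others are marked. Members, lists and rules were chosen with earlier results of these data known. Nothing says replicates came from separate clutches. Gene-count rows naming no gene held 11.7% to 50.4% of reads and were left out of totals. Endothelial RNA-seq was not used here.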

Additional observations from a re-analysis of the deposited data

How the results depend on the processing

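The number of members, the shares in both and in neither morphant list, their differences from the other classes and the number of sites per member were recomputed under other settings, the last of which stayed at a median of 1 throughout. In the share found in both (or the remaining) morphant list, members stood below peaks with a site and a region, and above peaks with neither, in every setting run. Requiring an overlap of 50% of the peak gave 51.8% in both morphant lists and 22.1 points above peaks with neither. The better-ranked 50% of each m6A list gave 256 members, 44.9% in both lists, 12.9% in neither, and differences of −17.5 and 21.5 points. Morphant lists of equal length gave 36.2% in both and 21.9% in neither, with −13.96 and 15.4 points. Counting as bound the peaks that overlap a RIP list 1 region shared with list 2 gave 1673 members, 69.1% in both and −18.1 points. Weighting to the members' length and fold gave −19.7 and 21.5 points. The cause of these shifts was not tested. Leaving out each replicate in turn gave 679 to 1337 members, 47.01% to 87.2% in both (or the remaining) morphant list, 4.42% to 33.7% in neither, and differences of −29.96 to −6.27 and 16.8 to 31.4 points; the smallest differences came without morphant replicate 2. miCLIP sites within 5 nt, positions moved by 1 nt, nuclear chromosomes and a 200 bp margin around RIP regions changed no share or difference beyond its counting interval and gave 531 to 613 members. The 1 nt shift down and the class with regions in both RIP lists (−28.4 points) were chosen after seeing the data. No paired analysis was possible because the shares come from no test; an exact sign-flip test of the differences, paired by morphant list, was left out since with 2 lists its two-sided p cannot go below 0.5. RIP depth limits what absence of a region can show.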
